A study of Mus musculus with 48 samples.

Results

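The enzymes that clear superoxide, hydrogen peroxide and lipid peroxides were followed in the substantia nigra (SN) of mice given α-synuclein aggregates and breathing normal or low oxygen. The genes were chosen by name, not by a threshold on a measured value, as *Sod1*, *Sod2*, *Cat*, *Gpx1*, *Gpx4*, *Prdx1*, *Prdx3*, *Prdx5*, *Prdx6* and *Acsl4*. All 10 were found among the 19601 protein-coding genes of the batch-corrected table, and all 10 passed the filter on low counts that left 14839 genes to test.

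The SN of male C57BL/6J mice was profiled by bulk RNA-seq of poly(A) RNA. All mice were injected once, at 121 days of age, into the striatum of a single side. The injected material was either α-synuclein monomer, the control protein, or α-synuclein preformed fibrils (PFF), the aggregated form of that protein that seeds further aggregation. Afterwards mice breathed 21% O2 (normoxia) or 11% O2 (hypoxia) until harvest 90 to 98 days later. The methods of the study give 12 weeks of 11% O2, whereas the deposited design text gives 6 weeks of 21% O2 and then 6 weeks of 11% O2. Each group had 12 mice, and 6 of the 48 were left out by the authors. The mice analysed were 11 given monomer at 21% O2, 12 given PFF at 21% O2, 9 given monomer at 11% O2 and 10 given PFF at 11% O2. The whole SN was taken, not the pars compacta alone, and the mice were wild type with no transgene. In tissue of this kind, fewer cells of a type and less RNA per cell cannot be told apart.

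Superoxide leaks from the respiratory chain and from oxidases, and superoxide dismutases turn it into hydrogen peroxide. Catalase, glutathione peroxidases and peroxiredoxins then reduce the peroxide to water. Within membranes, iron and peroxide start chains of lipid peroxidation, which GPX4 stops by reducing lipid hydroperoxides, whereas ACSL4 loads membranes with the polyunsaturated fatty acids that are oxidised most easily. Dopaminergic neurons of the SN carry a heavy oxidant load because dopamine itself is oxidised and because their mitochondria are active.

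Batch-corrected counts per mouse totalled 12360798 to 16566973. Harvest was in 3 batches. Batch 1 held all 4 groups, batch 2 held no monomer mice at 11% O2, and batch 3 held no monomer mice at 21% O2. The markers of dopaminergic neurons were *Th*, *Slc6a3*, *Slc18a2*, *Ddc* and *Slc10a4*, none of which was at 0 throughout a group. The same held for the markers of every other cell type examined, so it cannot bear out the tissue label. The summed level of the dopaminergic markers differed widely between mice of the same group. It ran from 757 to 4046 TPM in monomer mice and from 637 to 4330 TPM in PFF mice at 21% O2. At 11% O2 the sum ran from 552 to 4530 TPM in monomer mice and from 1298 to 3831 TPM in PFF mice. TPM are transcript numbers scaled to an equal total per mouse, which account for transcript length, so that levels can be set side by side between genes.

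Promoter sequence was available for 9 of the 10 genes in the RefSeq table used here (GRCm38.p6), as windows of 300 bases that start 250 bases before a start site. *Prdx6* had no entry. Because NRF2, the master regulator of antioxidant genes, binds the antioxidant response element and because HIF, the factor stabilised by low oxygen, binds the hypoxia response element, the windows were searched on both strands for the letters TGACNNNGC and for ACGTG or GCGTG. The 9 genes had 12 windows, 4 of them of *Gpx4*. The first motif was found for *Prdx1* and *Sod1* (2 of 12 windows), and in 12.4% of the 32851 windows of all genes. ACGTG was found for *Gpx1* alone among the genes here (1 of 12), against 19.6% of all windows. GCGTG was found for *Sod1*, *Sod2*, *Gpx1*, *Gpx4*, *Prdx3*, *Prdx5* and *Acsl4* (9 of 12), against 32.4% of all windows. *Cat* held none of the motifs. The 12 windows were 47% to 71.7% G and C, and windows of like content were not compared. The matches of the 2 rarer motifs are shown with the flanking bases, the match in capitals.

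Prdx1: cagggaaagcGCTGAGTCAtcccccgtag
Sod1: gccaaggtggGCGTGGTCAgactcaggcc
Gpx1: atgactagaaACGTGtgggtaaagt

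The *Prdx1* stretch lies at chr4:116685456-116685484 and the *Sod1* stretch at chr16:90220696-90220724, both on the plus strand, with the motif on the reverse strand at positions -133 and -56 counted from the RefSeq start site. The match of *Sod1* overlaps a GCGTG on the plus strand. The *Gpx1* stretch lies at chr9:108338887-108338911 on the plus strand, with the motif at position -183 from the RefSeq start site, and overlaps the start of the gene as GENCODE draws it. A match of letters is not a bound site. None of the 3 genes was called in any comparison below.

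*Gpx4* was the most abundant of the genes, at a mean of 590.6 TPM over the 42 mice, above 99.1% of the 19601 genes. *Acsl4* was the least abundant, at 51.8 TPM, and the means of *Gpx4* and *Acsl4* differed 11.4-fold. The order by mean TPM was *Gpx4*, *Prdx5* (442.5), *Prdx3* (241), *Prdx1* (192.3), *Prdx6* (183.3), *Gpx1* (172.8), *Sod1* (162.6), *Cat* (118.6), *Sod2* (112.4) and *Acsl4*. Neighbours in this order were in the same order in 42 of 42 mice for *Gpx4* over *Prdx5*, *Prdx5* over *Prdx3*, *Prdx3* over *Prdx1*, *Sod1* over *Cat* and *Sod2* over *Acsl4*. The remaining neighbours overlapped. *Prdx1* exceeded *Prdx6* in 27 of 42 mice, *Prdx6* exceeded *Gpx1* in 27, *Gpx1* exceeded *Sod1* in 32, and *Cat* exceeded *Sod2* in 33.

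SOD1 and SOD2 dismutate superoxide in the cytosol and in the mitochondrial matrix. *Sod1* (ENSMUSG00000022982.10, chromosome 16 of GRCm38, 90220754 to 90226329, plus strand) ran from 148.98 to 181.5 TPM (median 160.3) in monomer and from 159.04 to 180.4 (168.7) in PFF mice at 21% O2, and from 144.6 to 162.9 (158.6) in monomer and from 140.6 to 185.5 (159.2) in PFF mice at 11% O2. *Sod2* (ENSMUSG00000006818.5, chromosome 17, 13006846 to 13040063, plus strand) ran from 97.3 to 129.4 TPM (median 113.6) in monomer and from 99.7 to 124.3 (110.3) in PFF mice at 21% O2, and from 93.4 to 124.6 (113.9) in monomer and from 104.1 to 123.7 (110.6) in PFF mice at 11% O2. For both genes all 4 groups overlapped, and the medians of *Sod2* lay within 4 TPM of each other.

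Catalase, in peroxisomes, and the selenoenzyme GPX1 reduce hydrogen peroxide. *Cat* (ENSMUSG00000027187.10, chromosome 2, 103453849 to 103485160, minus strand) ran from 98.1 to 141.5 TPM (median 115.7) in monomer and from 104.6 to 124.4 (117.8) in PFF mice at 21% O2, and from 114.2 to 129.5 (120.2) in monomer and from 108.3 to 128.02 (117.2) in PFF mice at 11% O2. *Gpx1* (ENSMUSG00000063856.7, chromosome 9, 108338903 to 108340343, plus strand) ran from 151.5 to 187.6 TPM (median 160.97) in monomer and from 160.6 to 197.7 (175.6) in PFF mice at 21% O2, and from 155.97 to 203.7 (163.05) in monomer and from 162.6 to 199.6 (170.004) in PFF mice at 11% O2. The lowest and the highest *Cat* values were those of monomer mice at 21% O2, whose range enclosed those of the other groups.

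Peroxiredoxins reduce peroxides through a reactive cysteine: PRDX1 mainly in the cytosol, PRDX3 in mitochondria and PRDX5 in several compartments. *Prdx1* (ENSMUSG00000028691.12, chromosome 4, 116685544 to 116700822, plus strand) ran from 157.5 to 213.4 TPM (median 185.3) in monomer and from 184.2 to 221.99 (204.3) in PFF mice at 21% O2, and from 163.5 to 208.1 (190.8) in monomer and from 171.8 to 205.6 (185.6) in PFF mice at 11% O2. *Prdx3* (ENSMUSG00000024997.7, chromosome 19, 60864051 to 60874556, minus strand) ran from 205.9 to 264.6 TPM (median 238.3) in monomer and from 233.9 to 280.5 (251.8) in PFF mice at 21% O2, and from 195.2 to 252.5 (240.1) in monomer and from 219.6 to 247.5 (234.9) in PFF mice at 11% O2. *Prdx5* (ENSMUSG00000024953.17, chromosome 19, 6906697 to 6910106, minus strand) ran from 366.8 to 468.2 TPM (median 429.8) in monomer and from 378.6 to 526.7 (438.9) in PFF mice at 21% O2, and from 378.1 to 524.9 (426.9) in monomer and from 404.2 to 480.9 (457.3) in PFF mice at 11% O2. PFF mice at 21% O2 had the highest median of *Prdx1* and *Prdx3* among the groups, with wide overlap of single mice.

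GPX4 and PRDX6 repair oxidised phospholipids and ACSL4 supplies the fatty acids at risk. *Gpx4* (ENSMUSG00000075706.10, chromosome 10, 80047166 to 80056439, plus strand) ran from 513.05 to 600.8 TPM (median 568.2) in monomer and from 560.2 to 661.9 (609.7) in PFF mice at 21% O2, and from 535.6 to 673.5 (590.2) in monomer and from 521.3 to 657.5 (589.9) in PFF mice at 11% O2. *Prdx6* (ENSMUSG00000026701.15, chromosome 1, 161240112 to 161251219, minus strand) ran from 142.6 to 238.3 TPM (median 193.7) in monomer and from 142.2 to 223.98 (208.6) in PFF mice at 21% O2, and from 144.7 to 194.6 (182.6) in monomer and from 150.6 to 191.1 (172.5) in PFF mice at 11% O2. *Acsl4* (ENSMUSG00000031278.12, chromosome X, 142317993 to 142390535, minus strand) ran from 47.8 to 71.3 TPM (median 51.1) in monomer and from 42.8 to 65.8 (51.5) in PFF mice at 21% O2, and from 37.8 to 62.4 (50.3) in monomer and from 42.04 to 59.6 (51.7) in PFF mice at 11% O2. The ranges of *Prdx6* at 11% O2 lay inside those at 21% O2, with no mouse above 194.6 TPM. A processed copy, *Gpx4-ps2*, held a median of 5.94% of the counts of the pair, so the division of reads between the pair is uncertain.

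**Figure D1:**
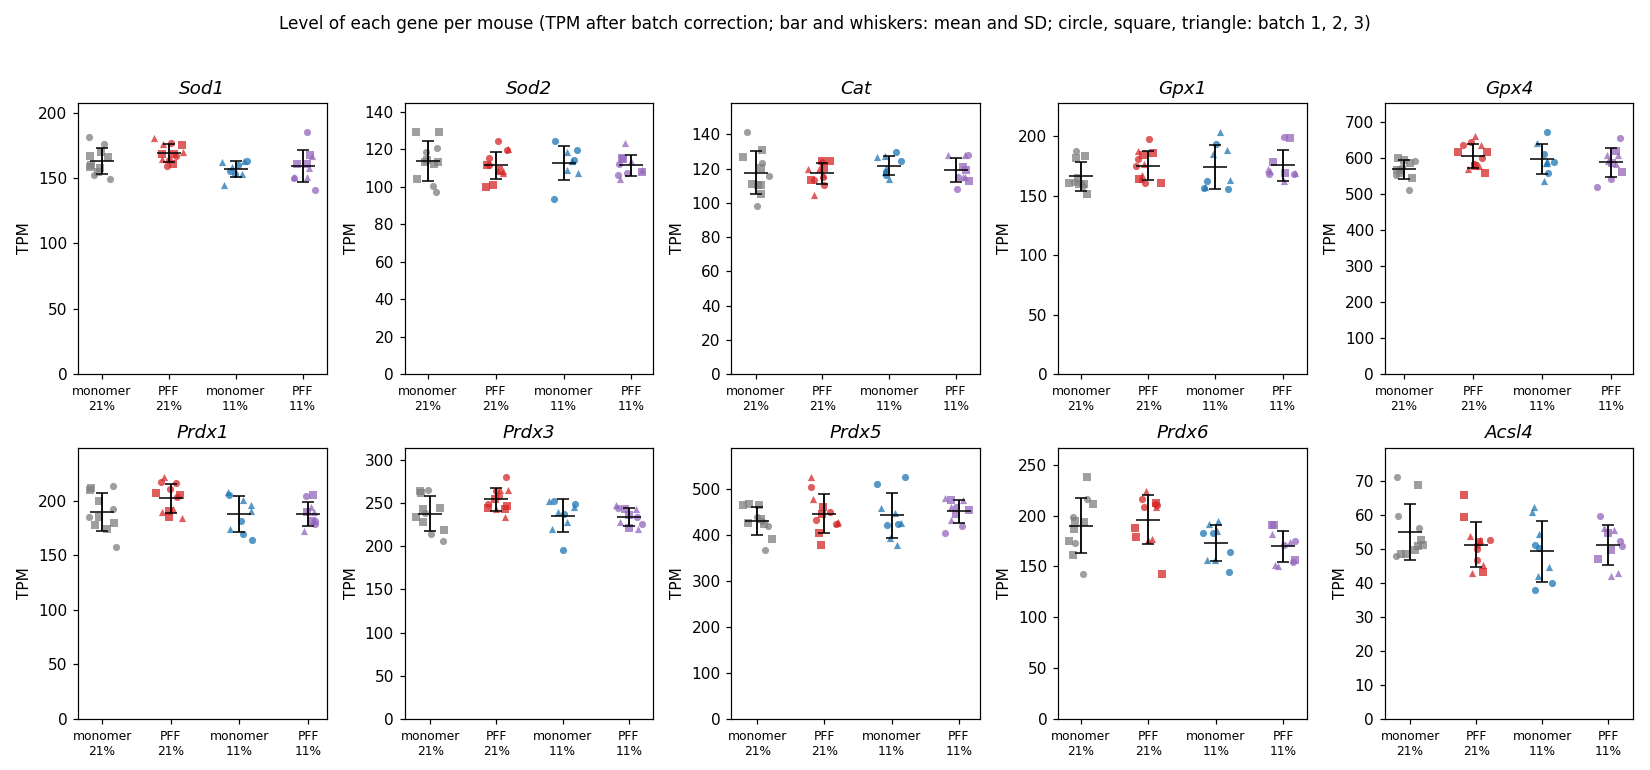
TPM after batch correction of the 10 genes (y axes, from 0) in each of 42 mice, by injection and O2 (x axes). Bars and whiskers are mean and SD, and the groups overlap for every gene, with medians of *Gpx4* of 568.2 TPM in monomer and 609.7 TPM in PFF mice at 21% O2.

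The sum over the 10 genes was 2232 ± 111 TPM (SD, n = 11) in monomer and 2330 ± 105 TPM (SD, n = 12) in PFF mice at 21% O2, and 2251 ± 99.5 TPM (SD, n = 9) and 2248 ± 97.6 TPM (SD, n = 10) at 11% O2. Single genes varied little between mice of a group. The within-group SD of log2 CPM was lowest for *Sod1*, at 0.088, and highest for *Prdx6* and *Acsl4*, at 0.18 and 0.20, and was under the median of all genes (0.14) for 8 of the 10. That median takes in genes of any level, whereas even *Acsl4*, the least abundant here, lay above 79.6% of genes by mean TPM. Genes of like level were not compared. Counts were at least 745 in every mouse for every gene here, so that counting error was at most 3.66% of a value.

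The first question was whether PFF changed these genes at 21% O2. None of the 10 was called, at an adjusted p under 0.05 with an absolute log2 fold change above 0.25 in edgeR's quasi-likelihood test, where 3.70% of all genes were called. None passed the adjusted p alone either, which 7.59% of all genes did. At an unadjusted p under 0.05, 3 of 10 passed, against 22.4% of all genes. *Gpx4* was nearest to the threshold, with a log2 fold change of 0.11 (SE 0.041, 95% interval 0.030 to 0.20, adjusted p = 0.0843 in edgeR). *Prdx3* gave 0.11 (SE 0.044, interval 0.024 to 0.20, adjusted p = 0.114) and *Prdx1* 0.11 (SE 0.049, interval 0.0097 to 0.21, adjusted p = 0.175). Log2 fold changes were above 0 for 8 of the 10 genes, with a median of 0.072, against 50.4% and a median of 0.00085 over all genes. *Sod2* (-0.014) and *Acsl4* (-0.084) lay below 0. For each of the 10 genes the 95% interval lay within 0.25 of 0 on the log2 scale.

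Both groups met in batches 1 and 2. The log2 fold changes of *Gpx4* were 0.15 in batch 1 and 0.052 in batch 2, those of *Prdx3* 0.19 and 0.037, and those of *Prdx1* 0.19 and 0.050. *Sod1* and *Gpx1* were also above 0 in both batches. The other 5 genes took opposite signs, as for *Prdx6* with 0.27 in batch 1 and -0.078 in batch 2, and *Sod2* with 0.11 and -0.15. The smallest adjusted p within either batch was 0.210 in edgeR. All 5 markers each of dopaminergic neurons, microglia, oligodendrocytes and red cells had log2 fold changes above 0 in this comparison (medians 0.13, 0.12, 0.027 and 0.30). None was called, though 1 oligodendrocyte marker passed the adjusted p alone. Above 0 were also 4 of 5 astrocyte, 4 of 5 choroid plexus, 3 of 5 pericyte, 2 of 5 endothelial and 1 of 5 neuron markers. The part of these cells in the values above was not tested.

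At 11% O2 the log2 fold changes of the 10 genes between PFF and monomer mice ran from -0.018 for *Cat* to 0.066 for *Acsl4*, with a median of 0.012, against -0.00060 over all genes. None was called, and neither was any of all genes tested (0%). None passed at an unadjusted p under 0.05, where 581 genes (3.92%) did, and DESeq2, limma and the other fits called none of the 10 (DESeq2 called 1 of all genes, limma 0). The interval with the largest reach was that of *Acsl4*, from -0.11 to 0.24, and all 10 intervals lay within 0.25 of 0. The largest difference within a batch was that of *Acsl4*, at 0.29 in batch 1 and -0.098 in batch 3.

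For breathing 11% O2 in monomer mice, 7.23% of all genes were called, and 13.2% passed the adjusted p alone, but none of the 10 did either. The largest log2 fold changes were those of *Acsl4*, at -0.15 (SE 0.086, 95% interval -0.33 to 0.020, adjusted p = 0.245 in edgeR), and *Prdx6*, at -0.13 (SE 0.078, interval -0.29 to 0.026, adjusted p = 0.277). *Gpx4* gave 0.075 (SE 0.044, interval -0.014 to 0.16). The rest lay between -0.050 for *Sod1* and 0.071 for *Gpx1*. None of the 10 passed at an unadjusted p under 0.05, against 27.7% of all genes, and 8 intervals lay within 0.25 of 0, the exceptions being *Acsl4* and *Prdx6*. The groups met in batch 1 alone, where *Acsl4* gave -0.39 (adjusted p = 0.0714 in edgeR within that batch), *Prdx6* -0.10 and *Prdx5* 0.18.

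In the same comparison all 5 endothelial, all 5 pericyte and all 5 red cell markers were called higher, with median log2 fold changes of 0.59, 0.57 and 1.32. The summed red cell markers ran from 514 to 1404 TPM in monomer mice at 21% O2 and from 1058 to 5795 TPM at 11% O2. Red cells carry mRNA of *Prdx2* and other antioxidant genes, and the part of these cells in the values of the 10 genes was not tested. Of the oligodendrocyte markers 1 of 5 was called higher, and all 5 had log2 fold changes above 0 (median 0.10). No member of the dopaminergic neuron, neuron, astrocyte, microglia or choroid plexus lists was called.

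For breathing 11% O2 in PFF mice, 0.58% of all genes were called and 0.815% passed the adjusted p alone, none of the 10 among them, although 4 of 10 passed at an unadjusted p under 0.05, against 10.7% of all genes. *Prdx6* had the largest difference of the 40 between pairs of groups, at -0.21 on the log2 scale (SE 0.075, 95% interval -0.36 to -0.056, adjusted p = 0.256 in edgeR), which is 0.867 times the level at 21% O2. *Prdx3* gave -0.12 (SE 0.046, interval -0.21 to -0.024, adjusted p = 0.322), *Prdx1* -0.10 (SE 0.050) and *Sod1* -0.086 (SE 0.039). The other 6 genes lay between -0.043 for *Gpx4* and 0.024 for *Cat*. These 4 genes were below 0 in all 3 batches, unlike the rest. *Prdx6* gave -0.38 in batch 1, -0.012 in batch 2 and -0.26 in batch 3. Astrocytes are the cells in which *Prdx6* is best known in the brain. In monomer mice their summed markers had medians of 1937 TPM at 21% O2 and 2054 TPM at 11% O2. There 3 of 5 had log2 fold changes above 0 (median 0.098). In PFF mice the medians of the sum were 2054 TPM at 21% O2 and 1917 TPM at 11% O2. Of these markers 2 of 5 were above 0 in PFF mice (median -0.025), with none called. Of the vascular and blood markers, 1 of 5 endothelial, 3 of 5 pericyte and 0 of 5 red cell genes were called, all higher, and all 15 had log2 fold changes above 0 (medians 0.36, 0.49 and 0.79). Their summed levels had medians of 127.6 and 162.1 TPM, 118.1 and 155.02 TPM, and 1324 and 1858 TPM at 21% and 11% O2. The part of these cells in the values of *Prdx6* was not tested.

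**Figure D2:**
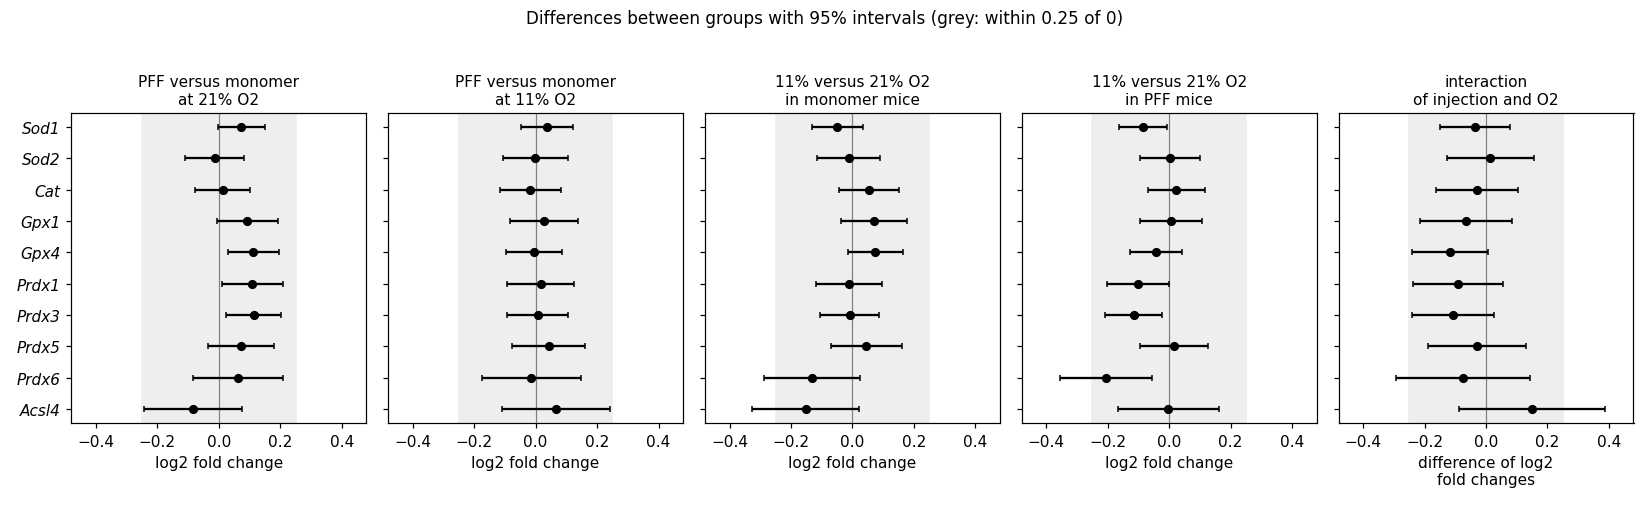
Log2 fold changes (x axes; in the last panel, difference of log2 fold changes) of the 10 genes (y axes) with 95% intervals from edgeR. In 45 of 50 cases the interval lies inside the grey band, within 0.25 of 0, and *Prdx6* in PFF mice reaches furthest below 0, to -0.36.

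The test of whether the response to PFF differed between 21% and 11% O2 called none of the 10, against 2.14% of all genes (2.32% at the adjusted p alone). None passed at an unadjusted p under 0.05, against 15.4% of all genes. The difference of log2 fold changes was below 0 for 8 of 10 genes, with a median of -0.051, against a median of -0.00057 over all genes. *Gpx4* had the smallest unadjusted p, with -0.12 (SE 0.061, 95% interval -0.24 to 0.0048, adjusted p = 0.352 in edgeR). *Acsl4*, at 0.15 (SE 0.12, interval -0.088 to 0.39), was 1 of 2 genes above 0. The comparisons share groups: a low value in monomer mice at 21% O2 enters both the PFF and the O2 comparisons, so the signs of the 10 genes in them are not independent. All 4 groups met in batch 1 alone, where *Gpx4* gave -0.22 and *Acsl4* 0.50.

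**Figure D3:**
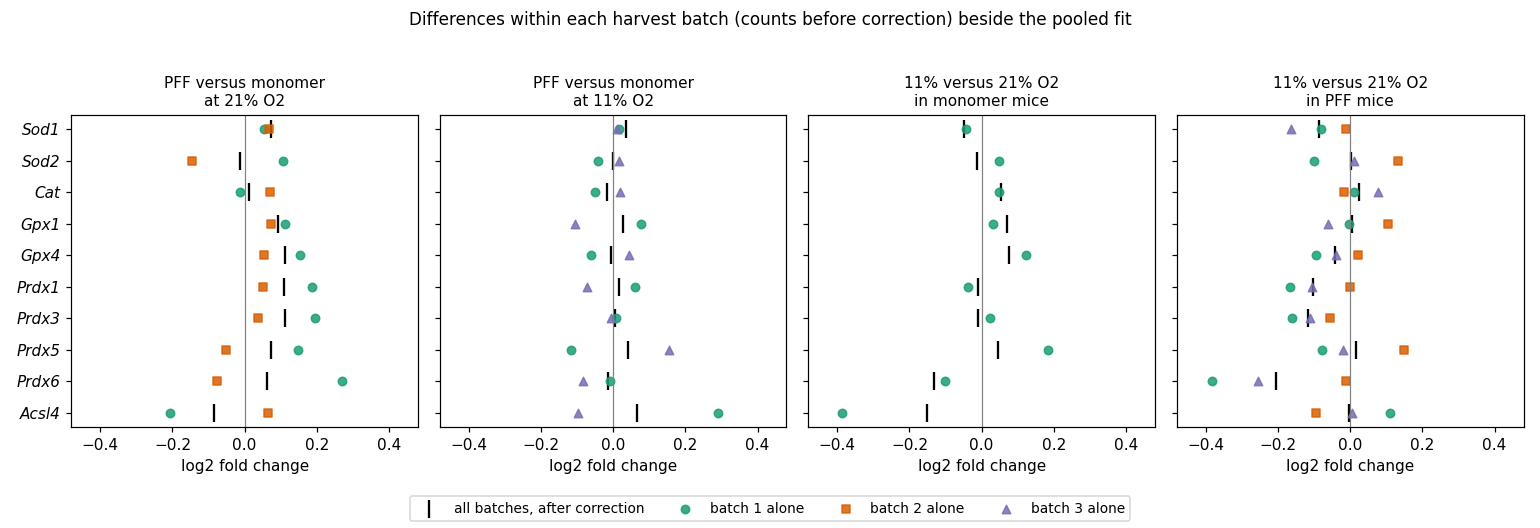
Log2 fold changes (x axes) of the 10 genes (y axes) in the fit of all batches (bar) and within each batch alone (coloured points; counts before correction). The widest gaps between batches were those of *Acsl4*, with 0.29 and -0.098 for PFF at 11% O2, and of *Prdx6*, with -0.38 and -0.012 for 11% O2 in PFF mice.

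The 10 genes depend on other enzymes for electrons, selenium and substrate. Related peroxide enzymes, genes of lipid peroxidation, and sources of superoxide and peroxide act beside them. Of 62 genes of these kinds in 5 lists, 60 were tested. *Gpx2* and *Alox15*, with mean levels of 0.472 and 0.0748 TPM, did not pass the filter. For PFF at 21% O2, 1 of the 60 was called (1.67%) and 5 passed the adjusted p alone (8.33%), against 3.70% and 7.59% of all genes. No list gene was called for PFF at 11% O2 or for 11% O2 in PFF mice. For 11% O2 in monomer mice 3 of 60 were called (5%), 2 higher and 1 lower, and 7 passed the adjusted p alone (11.7%), against 7.23% and 13.2% of all genes.

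Among 11 sources of superoxide and peroxide, *Nox4* was called. It encodes an NADPH oxidase that releases hydrogen peroxide. Its counts were low, from 2 to 26 in the 42 mice. *Nox4* ran from 0.0658 to 0.448 TPM (median 0.291) in monomer and from 0.190 to 0.725 (0.496) in PFF mice at 21% O2, and from 0.347 to 0.763 (0.573) in monomer and from 0.161 to 0.851 (0.384) in PFF mice at 11% O2. At 21% O2 its log2 fold change with PFF was 0.74 (SE 0.23, adjusted p = 0.0428 in edgeR), with 0.82 in batch 1 and 0.64 in batch 2. In monomer mice it rose by 1.01 at 11% O2 (SE 0.24, adjusted p = 0.00383 in edgeR), and by 0.71 in batch 1, where it did not pass the test alone. The interaction was -1.18 (SE 0.33, adjusted p = 0.0444 in edgeR). With a term for batch in a fit of the uncorrected counts of the 42 mice, the adjusted p was 0.0582 for PFF at 21% O2 and 0.106 for the interaction. Pericyte, endothelial and red cell markers, all called higher for 11% O2 in monomer mice, moved in the same direction as *Nox4* there. For 11% O2 in PFF mice *Nox4* gave -0.17 (SE 0.23), whereas the medians of these 3 lists were 0.49, 0.36 and 0.79. With PFF at 21% O2, where *Nox4* was higher, their medians were 0.058, -0.0037 and 0.30. The part of these cells in the values of *Nox4* was not tested.

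Of 16 tested genes of lipid peroxidation and its repair, *Alox5*, an enzyme that oxygenates arachidonic acid, was called. In monomer mice it ran from 0.873 to 1.89 TPM (median 1.28) at 21% O2 and from 1.43 to 2.30 TPM (1.95) at 11% O2. Its counts were low, from 13 to 41 in the 42 mice. *Alox5* rose by 0.55 at 11% O2 (SE 0.17, adjusted p = 0.0212 in edgeR), and by 0.29 in batch 1 alone. With the batch term the adjusted p was 0.0875. *Lpcat3*, which places polyunsaturated fatty acids into phospholipids after ACSL4 has activated them, passed the adjusted p alone at 0.22 (adjusted p = 0.00454) and is named after its value was seen.

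Of 19 genes of thiol recycling, *Sesn1* was called. It encodes a sestrin, a stress protein tied to the upkeep of peroxiredoxins. *Sesn1* ran from 50.4 to 65.6 TPM (median 55.7) in monomer mice at 21% O2 and from 41.1 to 51.6 TPM (48.4) at 11% O2, and fell by 0.25 (log2; SE 0.050; adjusted p = 0.000555 in edgeR), close to the fold threshold. Its value was -0.34 in batch 1, and with the batch term -0.20 over the 42 mice and -0.15 over all 48, neither of which passed both thresholds. In DESeq2 it was -0.249, under the fold threshold. At the adjusted p alone, *Sesn3* (-0.20), *Txnrd1* (-0.16), the reductase of thioredoxin, and *Gsr* (-0.15), the reductase of glutathione, also passed in that comparison, and *Sesn3* (-0.21) for PFF at 21% O2. These 3 genes are named after their values were seen. *Gsr* (adjusted p = 0.0494 in edgeR) missed the adjusted p in 8 of 10 alternative fits over all batches, DESeq2 and the batch term among them, with a highest value of 0.310.

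For PFF at 21% O2, 3 further genes passed the adjusted p but not the fold threshold, and are likewise named after their values were seen. They were *Pstk*, which prepares the tRNA that carries selenocysteine into GPX1 and GPX4 (0.21, adjusted p = 0.00314 in edgeR), *Prdx4*, the peroxiredoxin of the endoplasmic reticulum (0.19, adjusted p = 0.0296), and *Ccs*, the copper chaperone of SOD1 (0.14, adjusted p = 0.0488). *Ccs* ran from 42.6 to 54.6 TPM (median 50.8) in monomer and from 43.6 to 60.6 (53.9) in PFF mice, and *Pstk* from 9.55 to 12.1 (10.8) and from 11.2 to 13.9 (12.2). The groups overlapped for both. *Ccs* missed the adjusted p in 10 of 10 alternative fits over all batches (0.0537 to 0.186) and *Prdx4* in 3 of 10 (highest 0.136), whereas *Pstk* passed in each of them.

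Some pairs of the 10 genes varied together from mouse to mouse within the groups, and others in opposite directions. For each gene, log2 CPM minus the mean of the mouse's group was compared over 42 mice for all 45 pairs, with permutation tests within group and batch (100000 permutations, two-sided). After Benjamini–Hochberg adjustment 24 pairs passed, 19 above 0 and 5 below, and 20 of them kept their sign in all 3 batches. An absolute Pearson r over 0.5 was found for 14 of the 45 pairs (31.1%), against 11.9% of all pairs of the 10416 genes with a mean of at least 10 TPM. Genes in one library share its depth, its composition and its cells, so these values do not single out the 10 genes.

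The closest pair was *Prdx5* and *Gpx4*, with r = 0.83 and Spearman's rho = 0.85 (permutation p = 1e-05 for each, the smallest the permutations can give, adjusted p = 9e-05 and 0.000112). Without the 2 mice farthest from the median r was 0.85, and within batches 1, 2 and 3 it was 0.85, 0.94 and 0.73. *Gpx1* and *Prdx1* gave r = 0.77 and rho = 0.81 (permutation p = 1e-05 for each, adjusted 9e-05 and 0.000112), with 0.74 without 2 mice and 0.69, 0.87 and 0.79 within batches. The mitochondrial pair *Sod2* and *Prdx3* gave r = 0.77 and rho = 0.65 (permutation p = 0.00011 for r, adjusted 0.00055 and 0.00135), with 0.66 without 2 mice and 0.85, 0.70 and 0.52 within batches.

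*Acsl4* gave r below 0 with 7 of the other 9 genes, all but *Sod1* (0.24) and *Gpx1* (0.28). With *Prdx5* it gave r = -0.80 and rho = -0.76 (permutation p = 1e-05 for each, adjusted 9e-05 and 0.000112), with -0.76 without 2 mice and -0.74, -0.83 and -0.81 within batches. With *Prdx6* r was -0.65 and rho -0.63 (permutation p = 1e-05 for each, adjusted 9e-05 and 0.000112), with -0.55 without 2 mice and -0.87, -0.78 and -0.65 within batches. With *Gpx4* r was -0.58 and rho -0.57 (permutation p = 6e-05 for r, adjusted 0.000386 and 0.00135), with -0.63 without 2 mice and -0.50, -0.79 and -0.58 within batches.

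**Figure D4:**
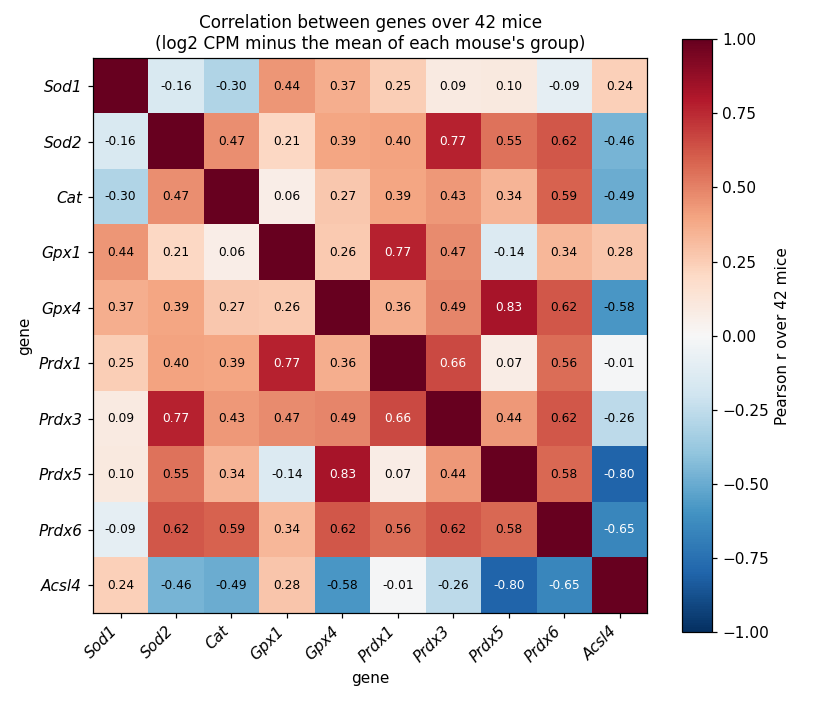
Pearson r between the 10 genes (both axes) over 42 mice, of log2 CPM minus the mean of each mouse's group; red is above 0 and blue below. *Gpx4* and *Prdx5* share the deepest red (0.83), and the row of *Acsl4* is mostly blue, down to -0.80 with *Prdx5*.

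The same deviations were set against the summed markers of 9 cell types, in 90 relations, of which 34 passed after adjustment (26 above 0 and 8 below). How often other genes pass against the same sums was not tested, so this count does not single out the genes studied here. *Prdx6* followed the astrocyte markers with r = 0.82 and rho = 0.77 (permutation p = 1e-05 for each, adjusted 0.00018 and 0.00015), with 0.74 without 2 mice and 0.89, 0.85 and 0.89 within batches. It followed the microglial markers with r = 0.79 and rho = 0.72 (permutation p = 1e-05 for each, adjusted 0.00018 and 0.00015; 0.72 without 2 mice; 0.92, 0.82 and 0.71 within batches). Against the dopaminergic markers *Prdx6* gave r = -0.63 and rho = -0.72 (permutation p = 3e-05 and 1e-05, adjusted 0.000386 and 0.00015), with -0.69 without 2 mice and -0.78, -0.76 and -0.71 within batches. By r, *Prdx6* also passed with the red cell (0.56), pericyte (0.51), endothelial (0.43) and oligodendrocyte (0.42) sums, but not with the neuron or choroid plexus sums. Other genes followed the astrocyte and microglial sums too, as *Gpx4* (r = 0.56 and 0.58) and *Prdx5* (0.54 and 0.65).

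*Acsl4* had signs opposite to those of *Prdx6*. With the dopaminergic markers it gave r = 0.70 and rho = 0.80 (permutation p = 1e-05 for each, adjusted 0.00018 and 0.00015), with 0.69 without 2 mice and 0.93, 0.58 and 0.92 within batches. With the astrocyte markers it gave r = -0.70 and rho = -0.74 (permutation p = 1e-05 for each, adjusted 0.00018 and 0.00015), with -0.62 without 2 mice and -0.90, -0.66 and -0.75 within batches. With the dopaminergic, astrocyte and microglial sums *Gpx1* passed by neither r nor rho, and *Sod1* passed with the astrocyte sum by rho alone (r = -0.27 and rho = -0.36, permutation p = 0.048 and 0.014, adjusted 0.10 and 0.0447). Among the other sums, *Gpx1* passed with red cells (r = 0.48 and rho = 0.55, permutation p = 0.0053 and 0.002, adjusted 0.019 and 0.00943). *Sod1* passed there with oligodendrocytes (r = -0.43 and rho = -0.47, permutation p = 0.018 and 0.0087, adjusted 0.0476 and 0.0301). The dopaminergic sum varied many-fold within every group, and its part in the group differences was not tested.

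As no gene of the 10 was called, the genes most like them were looked up after these values were seen, among the same 10416 genes over 42 mice, and are given as a description. The gene most like *Prdx6* was *Sdc4* (r = 0.93), a heparan sulfate proteoglycan, and the gene most like *Acsl4* was *Cdkl2* (0.94), a kinase. For *Sod2* it was *Oxr1* (0.92), named for oxidation resistance. *Gpx4* came with *Psmc1* (0.91), a proteasome subunit, and then with *Cox4i1* (0.89) of cytochrome oxidase. *Prdx5* was nearest to *Dtnbp1* (0.91) and *Ndufb8* (0.91), the latter a subunit of complex I, and *Prdx3* to *Slc25a5* (0.87), a mitochondrial ADP/ATP carrier. *Cat*, with *Ccnd1* at 0.78, had the loosest nearest neighbour of the 10.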

How the data were processed

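SN RNA of 48 mice was sequenced as poly(A)-selected, unstranded libraries. The authors removed ribosomal reads, aligned with STAR 2.7.5a to mm10 with GENCODE vM24, and took out duplicate reads with Picard 2.21.9. Gene counts were made with featureCounts 2.0.1, keeping only the primary position of multi-mapping reads. The authors then left out 6 mice on a principal component analysis and corrected the counts of the other 42 for harvest batch with ComBat-seq, given O2 and injection as covariates. Tools and versions follow the labels and the methods of the study. The deposited TPM values were computed by the authors from these counts. Correction that is told the groups can make corrected counts appear less variable than they were, and it cannot separate batch from group where a batch lacks a group, so fits with a batch term on uncorrected counts are given as alternatives.

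Corrected counts of 4 groups were fitted together in edgeR 4.0.16 (R 4.3.3; TMM, filterByExpr by group, quasi-likelihood F test, two-sided). Adjusted p-values are Benjamini–Hochberg over all 14839 genes. Genes were called where the adjusted p was under 0.05 and the log2 fold change, taken without its sign, was over 0.25. The SE was obtained from the log2 fold change and F (their ratio after taking the root of F). The fit was tested on simulated data. Alternatives used DESeq2 1.42.0, limma 3.58.1 on log2(TPM + 1) and log2(TPM + 0.1), other filters and normalization, a batch term, single batches, a replicate block and fits of only the groups compared. Correlations used 100000 permutations within group and batch.

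All 10 genes are named, as are list genes that were called, at most 3 per list and comparison. The members and lists were chosen with earlier results of these data known. Gene coordinates are those of GENCODE vM21 (GRCm38), the annotation used here, and promoters those of RefSeq. The methods describe a matched design, in which mice of different groups were matched for weight, age, date of delivery and, where this could be done, cage. The labels do not say which mice were matched, so no fit here uses the matching.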

Additional observations from a re-analysis of the deposited data

Results flagged for a closer look

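The interaction term, which asks whether the response to PFF differed between 21% and 11% O2, passed an adjusted p under 0.05 for 2 of the genes named in the text, neither of them among the 10 detoxification genes. *Nox4* differed by -1.18 (SE 0.33, adjusted p = 0.0444 in edgeR), with a log2 fold change for PFF of 0.74 at 21% O2 and -0.44 at 11% O2. Its adjusted p was over 0.05 in most of the other fits. Over all batches these values ran from 0.0513 with a replicate block to 0.118 with a batch term over 48 mice, both in edgeR. In batch 1 alone the adjusted p was 0.618. It stayed under 0.05 in DESeq2 (0.0320) and with the normalization of DESeq2 in edgeR (0.0442). *Sesn3* differed by 0.24 (SE 0.065, adjusted p = 0.0345 in edgeR), with -0.21 at 21% O2 and 0.026 at 11% O2, and stayed under the fold threshold in that fit. Its adjusted p was over 0.05 in 4 of 9 alternative fits over all batches (highest 0.0683). Among the 40 sets of values of 20 named genes in the groups of 9 and 10 mice, 0 held a mouse that stood apart by Dixon's test. Chance alone would mark about 1 set in 20.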

How the results depend on the processing

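No detoxification gene was called under any setting tried, and the smallest of 630 adjusted p-values was 0.0700, for *Gpx4* with PFF at 21% O2 when only those 2 groups were fitted. Of 580 values under alternatives, 38 changed sign. In fits of 1 batch alone there were 25, all of genes with a main log2 fold change of at most 0.084 in size, and elsewhere 13, of at most 0.036. With all 48 mice and a batch term, *Acsl4* gave -0.21 and *Prdx6* -0.076 for 11% O2 in monomer mice, and *Prdx6* -0.17 and *Sod1* -0.033 in PFF mice. Of 575 values of called or otherwise named list genes under alternatives, 24 were no longer called, 3 became called and 0 reversed. Only values called in the main fit could lose their call, so the 575 are not the base for the 24. All 24 were values of *Nox4*, *Alox5* or *Sesn1*, the list genes called. *Nox4* with PFF at 21% O2 had an adjusted p of 0.0506 to 0.0717 without the filter on low counts, with a batch term, with a replicate block and in limma on log2(TPM + 1) or log2(TPM + 0.1). With the replicate number as a block, 0 of the 10 genes were called in each of the 5 comparisons and *Gpx4* had an adjusted p of 0.0798 for PFF at 21% O2. The labels do not say that these numbers mark matched mice, and same-numbered mice correlated over 0.1 in 4 of 11, 1 of 7, 0 of 8 and 5 of 10 pairs (-0.382 to 0.387). The 3.66% counting error was well under the spread between mice, so that spread and the number of mice set the intervals. In contrast, the low counts of *Nox4* and *Alox5* limit their values.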

Other observations

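The 6 mice left out before batch correction were set beside the analysed mice of their group, on uncorrected TPM, for the 10 genes. Of the 60 values 35 lay within the group's range, 15 above and 10 below. For *Acsl4*, the left-out replicates 8 and 9 of monomer mice breathing 11% O2 had 30.7 and 27.4 TPM, whereas the analysed mice of that group ran from 35.4 to 53.6 TPM. Replicate 2 of the PFF group at 11% O2 had 73.5 TPM of *Sod2* (93.6 to 113.3 in the analysed mice) and 82.8 TPM of *Cat* (96.9 to 125 in the analysed mice).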
